A study of Mus musculus with 6 samples.

Results

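The Hox genes encode homeodomain transcription factors that give body segments their identity along the head-to-tail axis. In mouse they lie in 4 clusters, HoxA, HoxB, HoxC and HoxD, and within a cluster the genes are numbered by paralog group, from group 1 at the anterior end to group 13 at the posterior end. Genes of a low number are known to be switched on early and far forward in the embryo, and genes of a high number later and toward the tail. In pluripotent cells the clusters are known to be held nearly silent by Polycomb proteins, with promoters that carry both activating and repressing histone marks.

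Rows of the deposited count table with a protein-coding biotype and a symbol made of Hoxa, Hoxb, Hoxc or Hoxd and a number were taken. The 39 rows described are among 54715 in all and hold 38 gene symbols, since *Hoxd4* is listed under 2 identifiers. These are 10 genes in HoxA, 10 in HoxB, 9 in HoxC and 9 in HoxD. On GRCm38 these HoxA genes span 98.5 kb of chromosome 6 (52162417 to 52260880, minus strand), and the HoxB genes span 174 kb of chromosome 11 (96194316 to 96368256, plus strand). The HoxC genes span 116 kb of chromosome 15 (102921103 to 103036852, plus strand) and the HoxD genes 96.8 kb of chromosome 2 (74668310 to 74765142, plus strand).

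RNA was sequenced from 3 replicates of wild type (WT) ASCs and 3 replicates of *Bdh2*-/- ASCs. ASCs (advanced embryonic stem cells) are mouse ESCs in an advanced pluripotent state, and both genotypes came from a cross of a 129/sv female with a GOF/GFP male, in which green fluorescent protein reports *Pou5f1* promoter activity. The line was cultured on fibronectin with leukemia inhibitory factor, CHIR99021, BMP4 and activin A. The knockout was made with 2 guide RNAs and Cas9, and the study chose 1 ASC clone with a bi-allelic deletion for its later work. Which clone each of the 3 knockout libraries came from is not given in the sources used here, so a difference between a clone and the parent line cannot be told apart from the genotype. No source states whether the replicates were separate cultures, so p-values measure the spread between these libraries, which may be technical.

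The libraries held 18927748 to 28333541 counts on genes, and the 3 knockout libraries did not include the 2 shallowest. In these libraries 3 counts correspond to 0.106 to 0.158 CPM, the count scaled to the library size, here the raw total. *Bdh2* (ENSMUSG00000028167), the targeted gene, had 203, 193 and 209 counts in the WT replicates and 164, 136 and 129 in the knockout replicates (log2 fold change -0.79, standard error 0.12, edgeR adjusted p = 0.000246). The summed level of 14 pluripotency markers was 8410 to 8510 CPM in WT ASCs and 8320 to 8440 CPM in *Bdh2*-knockout ASCs, and 8 of them rose and 1 fell (median log2 fold change 0.17), where 21.0% of all tested genes rose and 20.8% fell. *Dppa5a*, the most abundant, fell from 2300 to 2020 CPM while *Pou5f1* rose from 1470 to 1650 CPM. Primitive endoderm markers summed to at most 273 CPM in WT ASCs and to at least 588 CPM in *Bdh2*-knockout ASCs, and 10 of 11 rose.

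Promoters of genes that changed and of genes that did not are shown first, because the clusters are known for CpG-rich promoters and the members are read against their place in the cluster. RefSeq start sites on GRCm38.p6 were found for 22 of the 38 symbols, with 24 windows of 250 bases upstream of a start. The symbols without a window include *Hoxc12*, *Hoxc13* and *Hoxb13*, which were lower in *Bdh2*-knockout ASCs. The windows are written 5′ to 3′ on the gene's strand with each CpG in capitals. *Hoxd11* (plus strand), *Hoxd8* (plus strand) and *Hoxa9* (minus strand) were lower in *Bdh2*-knockout ASCs. *Hoxd13* (plus strand) and *Hoxb4* (plus strand) did not pass the test.
Hoxd11, chr2:74682073-74682322: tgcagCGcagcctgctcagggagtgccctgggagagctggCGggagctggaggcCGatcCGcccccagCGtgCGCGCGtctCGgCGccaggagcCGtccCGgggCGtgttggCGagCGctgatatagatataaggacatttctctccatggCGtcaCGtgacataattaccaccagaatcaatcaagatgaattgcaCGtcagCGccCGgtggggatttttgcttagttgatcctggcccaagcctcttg
Hoxd8, chr2:74704365-74704614: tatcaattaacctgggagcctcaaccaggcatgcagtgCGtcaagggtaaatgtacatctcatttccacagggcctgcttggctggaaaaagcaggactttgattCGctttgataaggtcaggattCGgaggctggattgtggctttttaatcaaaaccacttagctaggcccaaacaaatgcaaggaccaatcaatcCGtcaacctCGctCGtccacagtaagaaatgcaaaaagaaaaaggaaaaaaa
Hoxa9, chr6:52227371-52227620: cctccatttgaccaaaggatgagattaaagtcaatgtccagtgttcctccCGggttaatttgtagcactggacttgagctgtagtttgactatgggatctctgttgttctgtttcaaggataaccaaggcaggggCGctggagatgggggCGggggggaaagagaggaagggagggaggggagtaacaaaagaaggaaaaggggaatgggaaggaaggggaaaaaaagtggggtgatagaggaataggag
Hoxd13, chr2:74667975-74668224: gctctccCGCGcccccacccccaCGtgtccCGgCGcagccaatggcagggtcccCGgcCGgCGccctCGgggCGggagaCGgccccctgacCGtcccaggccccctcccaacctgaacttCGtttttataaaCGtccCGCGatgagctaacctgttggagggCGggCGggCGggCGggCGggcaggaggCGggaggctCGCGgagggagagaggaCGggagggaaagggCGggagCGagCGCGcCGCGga
Hoxb4, chr11:96318017-96318266: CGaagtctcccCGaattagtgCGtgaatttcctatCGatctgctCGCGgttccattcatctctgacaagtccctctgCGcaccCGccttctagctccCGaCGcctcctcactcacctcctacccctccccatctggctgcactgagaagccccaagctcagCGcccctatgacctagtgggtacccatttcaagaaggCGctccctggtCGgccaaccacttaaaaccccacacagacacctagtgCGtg

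The *Hoxd13* window held 31 CpGs at a GC content of 74.4%, the *Hoxd11* window 20 CpGs at 60.4% and the *Hoxb4* window 14 CpGs at 58.0%. The windows of *Hoxd8* and *Hoxa9* were poorer, with 6 CpGs at 44.4% and 3 CpGs at 49.6%. The *Hoxa9* window, like the printed *Hoxd11* window, lies inside the gene as counted, before an internal start. *Hoxd11* has a second RefSeq start further upstream, whose window held 2 CpGs at 44.8%. Among the windows not printed, of genes tested and not called, *Hoxd1* held 24 CpGs, *Hoxa10* 20 and 7, and *Hoxa7* 7. Of the genes called lower, *Hoxd9* held 13 and *Hoxc4* 8. Over the 24 Hox windows the median ratio of observed to expected CpG was 0.721, and over 32827 windows of other genes it was 0.373. The 5 windows printed above hold 0 exon bases in GENCODE. Other windows upstream of a RefSeq start do overlap exons, and those of *Hoxc4* and *Hoxa3* lie in exons over all 250 bases. These are descriptions of few windows without a test.

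Short motifs were searched for on both strands of the same windows. The letters TTTAT, known to be bound by caudal factors, occurred in 9 of the 24 Hox windows (37.5%) and in 37.3% of the windows of other genes. TGATNNAT, known to be bound by HOX together with PBX proteins, occurred in 4 Hox windows (16.7%) against 7.68% elsewhere. A match of it with TT in place of NN also holds TTTAT. The direct repeat with a spacer known for retinoic acid receptors occurred in 0 Hox windows and in 0.00914% of the others. A string this rare would hardly be met in 24 windows, so the 0 says nothing about retinoic acid control. Of the windows printed above, *Hoxd13* held 2 matches to TTTAT and *Hoxd11* held 1 match to TGATNNAT.

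The Hox transcripts described were scarce in ASCs. Counting a gene as detected in a genotype when each of its 3 libraries held at least 3 counts, 23 of the 38 genes were detected in WT ASCs and 21 in *Bdh2*-knockout ASCs, of which 20 were shared. *Hoxa13*, *Hoxc6* and *Hoxd11* met this in WT ASCs alone, and *Hoxa2* met it in *Bdh2*-knockout ASCs alone. Because the knockout libraries were deeper on the whole, every library was also thinned to 18927748 counts, and then 23 genes were detected in WT ASCs and 16 in *Bdh2*-knockout ASCs. With a limit of 1 count and no thinning, 31 genes were detected in each genotype. Of the 16 genes of paralog groups 9 to 13, 13 were detected in both genotypes, and of the 22 genes of groups 1 to 8, 7 were. In 1 row, the *Hoxd4* identifier ENSMUSG00000101174, every library held 0 counts, which allows a level of up to 0.106 to 0.158 CPM on raw totals. The other *Hoxd4* row (ENSMUSG00000115956) held 0, 0 and 0 counts in WT ASCs and 1, 3 and 0 in *Bdh2*-knockout ASCs. The rows overlap on the genome, so how reads were divided between them is uncertain.

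Per transcript length, *Hoxc13*, known for its part in hair and nail formation, had the highest level of the described Hox genes in both genotypes, at 7.60 ± 0.334 TPM (the count scaled by gene length and library, SD, n = 3) in WT ASCs and 4.14 ± 0.559 TPM in *Bdh2*-knockout ASCs. Its neighbour *Hoxc12* stood at 4.52 ± 0.721 TPM in WT ASCs and at 1.5 ± 0.257 TPM in *Bdh2*-knockout ASCs. Among the other WT levels, those of *Hoxd9* (2.79 ± 0.688 TPM), *Hoxd13* (2.73 ± 0.776 TPM) and *Hoxb13* (2.48 ± 0.747 TPM) did not differ from each other beyond their spread. In *Bdh2*-knockout ASCs *Hoxd13* (2.08 ± 0.342 TPM) and *Hoxb9* (1.94 ± 0.632 TPM) were within their spread of each other. *Hoxb2*, *Hoxb3*, *Hoxb5*, *Hoxc5*, *Hoxd3* and *Hoxd4* were under 0.1 TPM in both genotypes. Exons of other genes cover 52.9% of the exon bases of *Hoxb3* and 62.8% of those of *Hoxd3*, so how reads there were assigned is uncertain.

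**Figure D1:**
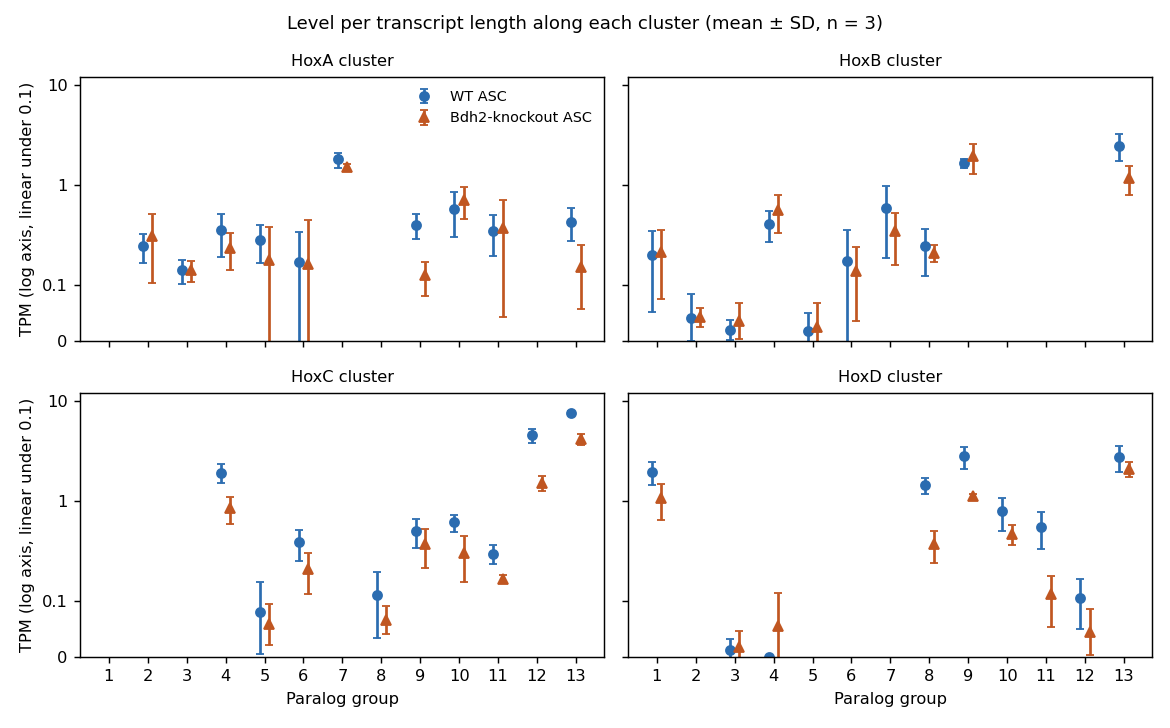
Level per transcript length (TPM, log axis that is linear under 0.1) of each Hox gene described, against its paralog group in the 4 clusters, as mean ± SD of 3 WT (circles) and 3 *Bdh2*-knockout libraries (triangles); *Hoxd4* is drawn from the higher of its rows. In WT ASCs levels above 1 TPM sit at both ends of HoxC and HoxD, at *Hoxd8* and *Hoxd9*, at *Hoxa7*, and at *Hoxb9* and *Hoxb13*, with *Hoxc13* highest at 7.60 and 4.14 TPM.

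Of the 38 genes, 15 had enough counts for the test across all genes, which needs about 10 counts (0.406 CPM) in 3 libraries. With a threshold of 0.05 on the adjusted p of edgeR's quasi-likelihood test, 8 of the 15 were lower in *Bdh2*-knockout ASCs, and 0 were higher, also at an unadjusted p under 0.05 and with DESeq2 and limma-voom. Among all 16758 tested genes 41.7% were called in either direction, 21.0% higher and 20.8% lower. Among the 5693 tested genes with a mean level in the range of the tested Hox genes, 0.36 to 4.91 CPM, 16.7% were called lower and 9.2% higher. The median log2 fold change was -0.87 over the 15 Hox genes, -0.14 over the genes of that range and -0.01 over all tested genes. Some members entered the test through one genotype: *Hoxa9* and *Hoxd11* reached the filter level in WT libraries alone, and *Hoxd8* in 1 knockout library. For such genes a difference is built into the filter, so the share of 8 in 15 and the median are no measure of the 38. Of the 8 genes that reached that level in all 6 libraries, 5 were lower in *Bdh2*-knockout ASCs.

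In bulk RNA, fewer cells with a transcript and less of the transcript per cell cannot be told apart, and this holds for every level given here.

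**Figure D2:**
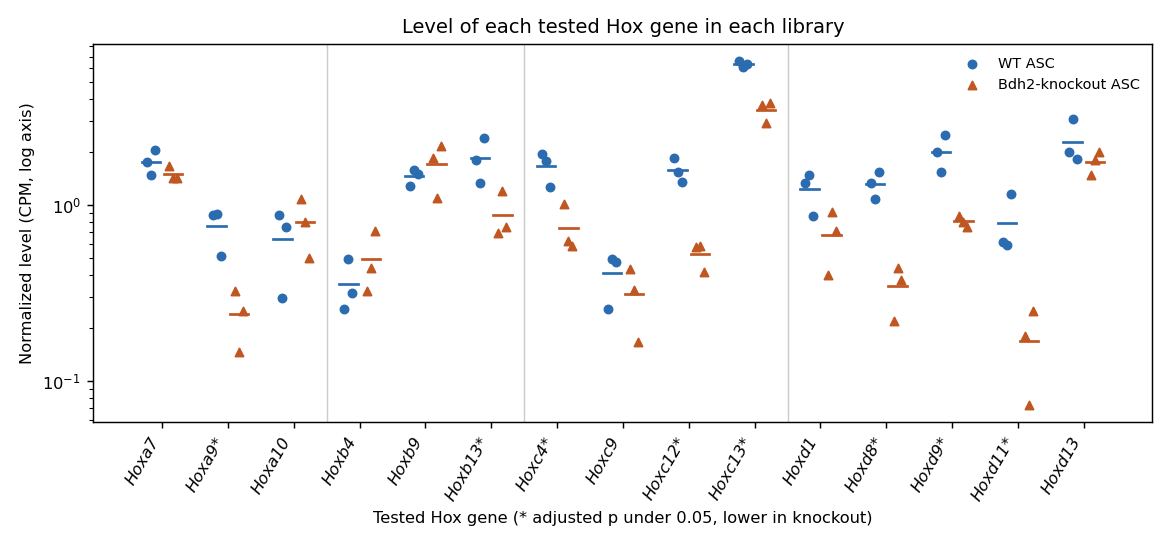
Normalized level (CPM, log axis) of each of the 15 tested Hox genes in the 3 WT (circles) and 3 *Bdh2*-knockout libraries (triangles), with a bar at each mean; an asterisk marks adjusted p under 0.05. In the 8 marked genes each knockout library lies below each WT library, from *Hoxc13* (6.34 and 3.48 CPM on average) down to *Hoxd11* (0.787 and 0.168 CPM).

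In the HoxD cluster 5 of the 9 genes were tested and 3 fell. Among all tested genes 20.8% were lower, and among those of a like level 16.7%. Of the 3, *Hoxd11* reached the filter level in WT libraries alone and *Hoxd8* in only 1 knockout library. The count is thus no measure of the cluster. *Hoxd11* (ENSMUSG00000042499, 74679557 to 74687016), which acts in forelimb bone growth, had 12, 12 and 29 counts in the WT replicates and 5, 2 and 6 in the knockout replicates. Its level fell from 0.787 ± 0.313 to 0.168 ± 0.0892 CPM (SD, n = 3) (log2 fold change -2.24, standard error 0.48, edgeR adjusted p = 0.00225), and the genotypes did not overlap. *Hoxd8* (ENSMUSG00000027102, 74704615 to 74707933) had 26, 22 and 39 counts in the WT replicates and 6, 12 and 9 in the knockout replicates, 26.0% of the WT level (log2 fold change -1.94, standard error 0.34, edgeR adjusted p = 0.000541). *Hoxd9* (ENSMUSG00000043342, 74697727 to 74700208) went from 39, 31 and 63 counts to 24, 22 and 18, or from 2.01 ± 0.479 to 0.810 ± 0.06 CPM (log2 fold change -1.31, standard error 0.26, edgeR adjusted p = 0.00132). All 3 knockout libraries lay below all 3 WT libraries for both genes.

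The genes at the ends of HoxD did not pass the test. *Hoxd13* (ENSMUSG00000001819), a digit-forming gene at the posterior end, had 39, 62 and 46 counts in WT ASCs and 41, 49 and 48 in *Bdh2*-knockout ASCs, with overlapping levels of 2.30 ± 0.674 and 1.76 ± 0.259 CPM (log2 fold change -0.38, standard error 0.24, edgeR adjusted p = 0.221). *Hoxd1* (ENSMUSG00000042448), at the anterior end, had 26, 30 and 22 counts in WT ASCs and 11, 25 and 17 in *Bdh2*-knockout ASCs (log2 fold change -0.85, standard error 0.34, edgeR adjusted p = 0.0624). With a replicate left out its edgeR adjusted p ranged from 0.0312 to 0.234, under the threshold without WT replicate 3 (0.0312) and without knockout replicate 2 (0.0426). With all libraries it passed under scaling by library totals alone (edgeR adjusted p = 0.0483) and with no filter (0.0479), but not with DESeq2 (adjusted p = 0.151). With the hepatocyte level as a covariate, described with the cell type markers, the log2 fold change was -0.42 (edgeR adjusted p = 0.433).

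In the HoxC cluster 4 of the 9 genes were tested and 3 fell, beside 20.8% lower among all tested genes. *Hoxc13* (ENSMUSG00000001655, 102921103 to 102928814) had the most counts of the Hox genes described, 128, 123 and 160 in WT ASCs and 102, 80 and 91 in *Bdh2*-knockout ASCs. Its level fell from 6.34 ± 0.250 to 3.48 ± 0.473 CPM (SD, n = 3) (log2 fold change -0.87, standard error 0.14, edgeR adjusted p = 0.000376), and it had the smallest error of the tested Hox genes. *Hoxc12* (ENSMUSG00000050328, 102936757 to 102938609), next to it, was counted 36, 31 and 34 times against 16, 16 and 10 times, 33.5% of the WT level (log2 fold change -1.55, standard error 0.28, edgeR adjusted p = 0.000808). At the other end of the cluster *Hoxc4* (ENSMUSG00000075394, 103018934 to 103036852) was counted 38, 36 and 32 times against 28, 17 and 14 times (log2 fold change -1.15, standard error 0.30, edgeR adjusted p = 0.00789), a call lost with the hepatocyte level as a covariate (-0.93, adjusted p = 0.061). The genotypes did not overlap in these 3 genes. *Hoxc9* (ENSMUSG00000036139), a regulator of thoracic motor neurons, had 5, 10 and 12 counts against 12, 9 and 4 and overlapped (log2 fold change -0.39, standard error 0.46, edgeR adjusted p = 0.521).

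In the HoxA cluster 3 of the 10 genes were tested and 1 fell, beside 20.8% lower among all tested genes. So few genes cannot be told apart from that share. The 1 that fell reached the filter level in WT libraries alone. *Hoxa9* (ENSMUSG00000038227, 52223100 to 52231089), known from blood stem cells and leukemia, had 17, 18 and 13 counts in the WT replicates and 9, 4 and 6 in the knockout replicates, and its levels of 0.761 ± 0.213 and 0.241 ± 0.0903 CPM did not overlap (log2 fold change -1.62, standard error 0.42, edgeR adjusted p = 0.0076). The call was lost with the hepatocyte level as a covariate (-1.38, edgeR adjusted p = 0.0544). *Hoxa7* (ENSMUSG00000038236), with 34, 30 and 52 counts against 46, 39 and 34, and *Hoxa10* (ENSMUSG00000000938), with 17, 6 and 19 against 30, 22 and 12, overlapped between the genotypes. Their log2 fold changes were -0.23 (standard error 0.22, edgeR adjusted p = 0.42) and 0.32 (standard error 0.40, edgeR adjusted p = 0.551).

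In the HoxB cluster 3 of the 10 genes were tested and 1 fell, beside 20.8% lower among all tested genes. So few genes cannot be told apart from that share. *Hoxb13* (ENSMUSG00000049604, 96194316 to 96197447), a gene of the tail end that lies apart from the rest of the cluster, had 35, 27 and 61 counts in the WT replicates and 19, 33 and 18 in the knockout replicates. Normalized levels were 1.85 ± 0.540 and 0.884 ± 0.284 CPM, without overlap (log2 fold change -1.07, standard error 0.30, edgeR adjusted p = 0.0117). The call was lost without WT replicate 3 (log2 fold change -0.82, edgeR adjusted p = 0.0603) and without knockout replicate 1 (-0.90, adjusted p = 0.0543), with the direction kept. *Hoxb9* (ENSMUSG00000020875) had 25, 32 and 38 counts against 51, 30 and 52, and *Hoxb4* (ENSMUSG00000038692), known for expansion of blood stem cells, had 5, 10 and 8 against 9, 12 and 17. Both overlapped between the genotypes, with log2 fold changes of 0.22 (standard error 0.27, edgeR adjusted p = 0.541) and 0.45 (standard error 0.43, edgeR adjusted p = 0.432).

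The 8 genes that fell are the same 8 tested Hox genes in which the genotypes did not overlap. Over all tested genes, 52.4% did not overlap in either direction and 26.1% did not overlap and were lower in *Bdh2*-knockout ASCs. For each of the 8 the two-sided exact permutation test gave p = 0.1, the smallest that 3 against 3 allow.

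By position, 6 of the 10 tested genes of paralog groups 9 to 13 fell and 2 of the 5 tested genes of groups 1 to 8 fell, with median log2 fold changes of -0.97 and -0.85, beside 20.8% lower among all tested genes and 16.7% among those of a like level. *Hoxa9* and *Hoxd11*, among the 6, and *Hoxd8*, among the 2, entered the test mainly through the WT libraries, so these counts and medians are no measure of either set of paralog groups. Fold changes were spread within a paralog group. In group 9 *Hoxa9* and *Hoxd9* fell while *Hoxb9* and *Hoxc9* did not pass, and in group 13 *Hoxb13* and *Hoxc13* fell while *Hoxd13* did not pass. In group 4 *Hoxc4* fell and *Hoxb4* did not pass. Whether one member of a group changed more than another was not tested.

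**Figure D3:**
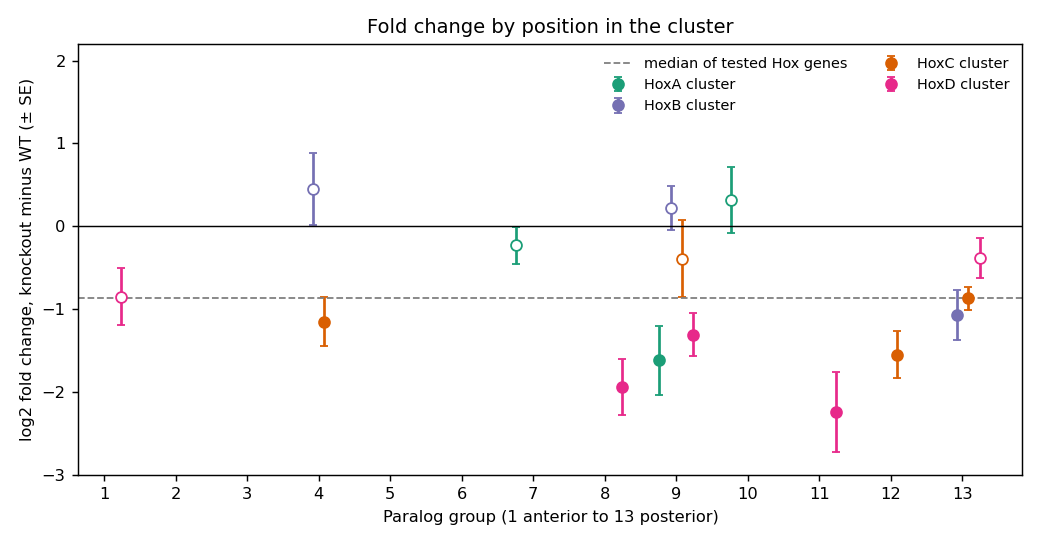
log2 fold change (knockout minus WT, ± standard error) of the 15 tested Hox genes against paralog group, coloured by cluster; filled circles passed an adjusted p of 0.05 and the dashed line is the Hox median of -0.87. All filled circles lie below 0, in groups 4, 8, 9, 11, 12 and 13, and the 3 genes above 0 are open.

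The 23 symbols below the filter had at most 14 counts in any library. Of their 24 rows, 14 had a lower and 9 a higher mean level in *Bdh2*-knockout ASCs. Their summed level was 3.91, 4.46 and 3.92 CPM in WT ASCs and 2.36, 3.41 and 3.13 CPM in *Bdh2*-knockout ASCs, 72.4% of the WT level, without overlap. With no filter 0 of these rows passed, and 1 had an unadjusted p under 0.05, *Hoxa13*, with 10, 6 and 7 counts in WT ASCs and 1, 5 and 4 in *Bdh2*-knockout ASCs (log2 fold change -1.44, edgeR adjusted p = 0.093).

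Summed over the 39 rows, Hox transcripts made 28.7, 28.2 and 28.8 CPM in WT ASC replicates 1 to 3 and 17.2, 17.1 and 18.0 CPM in *Bdh2*-knockout ASC replicates 1 to 3. The WT sums differed by less than the gap to the knockout sums, and the knockout mean was 60.9% of the WT mean. *Hoxc13* alone did not carry this, since the sum without it was 62.6% of the WT level. HoxC went from 11.1 ± 0.565 to 5.67 ± 0.649 CPM (51.1% of WT) and HoxD from 8.25 ± 0.448 to 4.16 ± 0.462 CPM (50.4%), neither with overlap. HoxA went from 4.66 ± 0.442 to 3.74 ± 0.233 CPM (80.1%), also without overlap. The HoxB sums, 4.28, 4.36 and 5.07 CPM in WT ASCs and 3.56, 3.56 and 4.42 CPM in *Bdh2*-knockout ASCs (84.2%), overlapped. The sums are weighted toward the few abundant genes, and whether the clusters differed from each other was not tested.

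**Figure D4:**
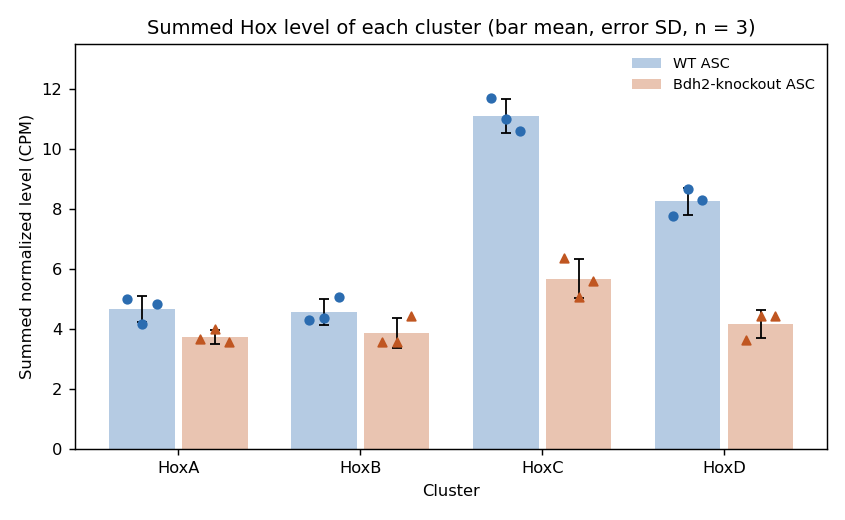
Summed normalized level (CPM) of the Hox genes of each cluster in WT and *Bdh2*-knockout ASCs, as bars for the mean, error bars for the SD (n = 3) and points for libraries. The knockout means are 51.1% (HoxC), 50.4% (HoxD), 80.1% (HoxA) and 84.2% (HoxB) of the WT means, and the points overlap in HoxB.

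Of 50 protein-coding genes that flank the clusters within 500 kb, 43 were tested, 10 rose and 7 fell, and their median log2 fold change was -0.01. Of all tested genes 21.0% rose and 20.8% fell, a share close to that of the flanking genes, so the count says nothing particular about them. The 4 with the smallest adjusted p are given with their log2 fold changes and distance from the cluster. *Hibadh*, for an enzyme of valine breakdown, lies 285 kb from HoxA (-0.52, edgeR adjusted p = 7.64e-06). *Igf2bp1*, for an RNA-binding protein, lies 188 kb from HoxB (0.53, adjusted p = 9.62e-06). *Atp5g1*, for an ATP synthase subunit, lies 119 kb from HoxB (0.31, adjusted p = 0.000206). *Skap2*, for an adaptor protein, lies 150 kb from HoxA (-0.32, adjusted p = 0.000237). *Evx1*, a homeobox gene of the primitive streak that lies 52.6 kb from the HoxA cluster, rose from 173, 149 and 248 counts in WT ASCs to 366, 498 and 318 in *Bdh2*-knockout ASCs (log2 fold change 0.77, standard error 0.14, edgeR adjusted p = 0.000608). Its relative *Evx2*, 8.75 kb from HoxD, had 1 count in all libraries together. The tested flanking genes of HoxD, *Lnpk* (-0.07) and *Mtx2* (-0.11), did not pass, with edgeR adjusted p of 0.523 and 0.153.

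**Figure D5:**
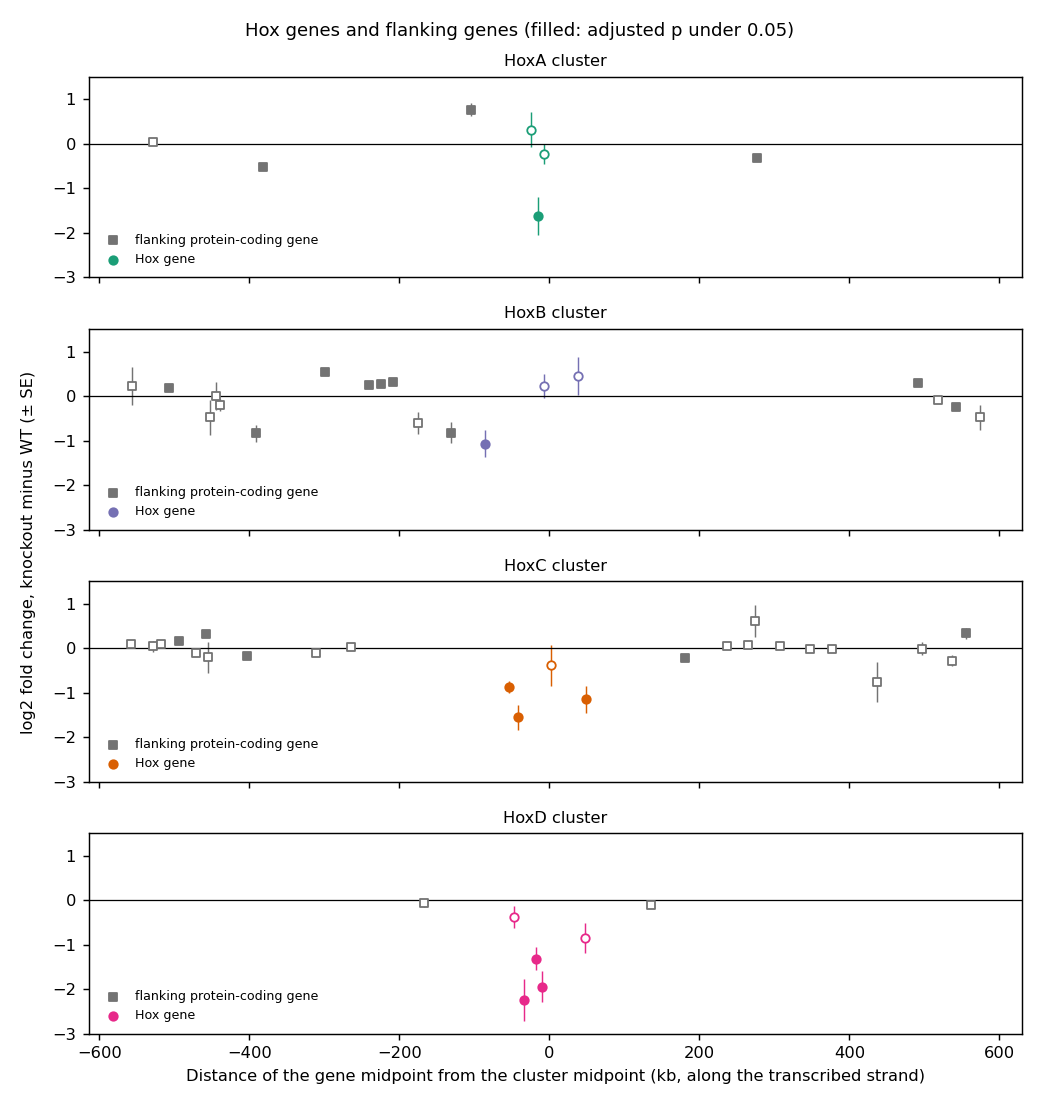
log2 fold change (knockout minus WT, ± standard error) of the tested Hox genes (circles) and tested flanking protein-coding genes (squares) against the distance of the gene's midpoint from the cluster midpoint in kb; filled symbols passed an adjusted p of 0.05. Flanking genes lie on both sides of 0 (10 rose and 7 fell of 43), and the filled Hox genes lie below 0.

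Of 38 noncoding genes inside the cluster spans, 18 had 0 counts in every library and 3 were tested, and 3 further protein-coding rows inside the spans did not reach the filter. The one that passed, *Gm53*, a long noncoding RNA between *Hoxb13* and *Hoxb9*, fell from 164, 164 and 236 counts (8.64 ± 0.630 CPM) to 154, 175 and 163 counts (6.27 ± 0.620 CPM) (log2 fold change -0.47, standard error 0.11, edgeR adjusted p = 0.0056). The exons of the noncoding gene *Hoxaas3* cover 20.4% of the exon bases of *Hoxa7*. As the sources do not say whether the counting used strand, reads in this stretch cannot be assigned to one partner. For 0 of the 15 tested Hox genes did other genes cover more than 50% of the exon bases.

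The counts for genes that act with or upstream of the clusters stand beside 41.7% of all tested genes called, 21.0% higher and 20.8% lower. Of 9 cofactors that bind DNA together with HOX proteins, all tested, 2 rose and 0 fell, *Pbx3* (log2 fold change 0.36, edgeR adjusted p = 0.0116) and *Meis2* (0.74, adjusted p = 0.043), with a list median of 0.09. DESeq2 called 1 cofactor, and the fit with the hepatocyte covariate called 0. Of 19 caudal and retinoic acid genes, 16 were tested, 5 rose and 1 fell. The retinoic acid receptor gene *Rarg* rose from 132 to 210.0 CPM (0.67, edgeR adjusted p = 8.24e-06), *Stra6*, the receptor for retinol-binding protein, from 0.307 to 0.963 CPM (1.62, adjusted p = 0.0025) and *Cyp26a1*, which breaks retinoic acid down, from 1.82 to 3.34 CPM (0.87, adjusted p = 0.00605). *Crabp1*, a retinoic acid binding protein of the cytosol, fell from 19.0 to 11.1 CPM (-0.78, edgeR adjusted p = 9.71e-06). The list median was 0.14.

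Of 13 posterior body axis genes, 12 were tested, 3 rose and 3 fell, with a median log2 fold change of -0.12. *Wnt3*, a signal that starts the primitive streak, rose from 3.50 to 7.42 CPM (1.08, edgeR adjusted p = 2.33e-05), as did *Evx1* above. *T*, the streak factor brachyury, fell from 104 to 79.7 CPM (-0.38, edgeR adjusted p = 0.00726), and *Nkx1-2*, a gene of the tail bud, fell from 30.9 to 23.2 CPM (-0.41, adjusted p = 0.00201).

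Of 40 Polycomb and trithorax genes, which are known to silence the clusters or keep them active, all were tested, 10 rose and 5 fell, and the median log2 fold change was 0.05. The share called was close to the 41.7% of all tested genes. *Kdm2b*, which brings a Polycomb complex to CpG islands, rose from 202 to 371 CPM (0.88, edgeR adjusted p = 2.85e-07). *Jarid2*, an accessory protein of Polycomb repressive complex 2, rose from 289 to 390.0 CPM (0.43, adjusted p = 4.93e-05), and *Kdm6a*, which removes the Polycomb mark, from 49.1 to 59.7 CPM (0.28, adjusted p = 0.000814). *Ezh1*, a methyltransferase of the same complex, fell from 45.6 to 28.1 CPM (-0.70, edgeR adjusted p = 1.51e-06). The part of any of these genes in the Hox levels was not tested.

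Differentiated cell types are known to carry Hox transcripts, so their markers are given beside the decrease. The counts of markers called stand beside 21.0% higher and 20.8% lower among all tested genes, and those of the fibroblast and mesoderm markers are near these shares. The 14 fibroblast markers summed to 71.1, 82.6 and 78.5 CPM in WT ASCs and to 68.1, 74.9 and 67.8 CPM in *Bdh2*-knockout ASCs, overlapping ranges, and of the 10 tested 1 rose and 3 fell. *Col1a1*, a chain of type I collagen, fell from 17.3 to 11.3 CPM (log2 fold change -0.62, edgeR adjusted p = 0.0013), *Pdgfrb*, a growth factor receptor, from 4.45 to 2.38 CPM (-0.91, adjusted p = 0.00255) and *Col5a1*, another collagen chain, from 27.1 to 23.0 CPM (-0.24, adjusted p = 0.0376), while *Fbn1*, a microfibril protein, rose from 8.9 to 15.7 CPM (0.81, adjusted p = 1.87e-05). *Dcn*, *Lum*, *Prrx1* and *Twist2* did not pass the filter, and 0 of the 14 markers were without counts in all libraries. Mesoderm markers summed to 148 to 188 and to 160.0 to 175 CPM (of 7 tested 2 rose and 2 fell), and neural markers to 28.9 to 30.4 and to 41.5 to 42.8 CPM (of 6 tested 3 rose and 0 fell). The part of these cell types in the Hox levels was not tested. Adult hepatocyte markers stood apart between libraries, at 538, 330.0 and 52.4 CPM in WT ASC replicates 1 to 3 and 41.8, 153 and 30.4 CPM in *Bdh2*-knockout ASC replicates 1 to 3, and 11 of 13 fell. With the hepatocyte level as a covariate, chosen after seeing the data, 6 Hox genes were called lower. Over all tested genes this fit called 5237, of which 2533 were lower, where the fit without it called 6996, of which 3478 were lower. *Hoxa9* (log2 fold change -1.38 with the covariate and -1.62 without, edgeR adjusted p = 0.0544 with it) and *Hoxc4* (-0.93 and -1.15, adjusted p = 0.061 with it) no longer passed.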

How the data were processed

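RNA of 3 WT and 3 *Bdh2*-knockout ASC samples was measured by RNA-Seq. The authors mapped filtered reads to GRCm38 with Hisat2 2.0.5, counted them on genes with FeatureCounts and deposited raw counts without normalization. The annotation release, the strand setting and the treatment of reads with several matches are not given in the sources used here. Samples were grouped by the labelled genotype.

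The quasi-likelihood test of edgeR 4.0.16 under R 4.3.3 was fitted to the counts with genotype as its single term, after TMM scaling and the default filterByExpr. Its p-values were adjusted by Benjamini-Hochberg over 16758 genes and called under 0.05. CPM values use TMM library sizes, apart from the level of 3 counts and the filter level, which use raw library totals. TPM values use the deposited gene lengths. DESeq2 1.42.0 and limma-voom (limma 3.58.1) were alternatives, beside other scalings, filters, a replicate block and left-out samples. The functions were tested on simulated data. Python 3.11.15, pandas 2.3.3 and matplotlib 3.10.9 made the tables and plots. Exons were taken from GENCODE, in which 38 of the 39 Hox rows are found, and promoter sequences from RefSeq. The level given for 3 counts covers counting error only.

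The members and the gene lists were chosen with earlier results of these data known. Named were *Bdh2*, the Hox genes (in full where tested), and flanking, noncoding and listed genes past the threshold, up to 4 per list with the smallest adjusted p. *Evx2*, *Lnpk*, *Mtx2*, *Hoxaas3*, *Dppa5a*, *Pou5f1*, *Dcn*, *Lum*, *Prrx1* and *Twist2* were named after their values were seen. Protein sequences were not analysed here. Some genes that met the rule for the members entered the fit over all genes and are not reported here.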

Additional observations from a re-analysis of the deposited data

How the results depend on the processing

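The number of Hox genes called lower, 8, was between 6 and 9 under every alternative but one. A minimum mean of 50 counts left 1 called, *Hoxc13*, because few Hox genes have that many counts. With each replicate left out it ranged from 7 to 9, and the number called higher was 0 under each alternative. *Hoxc12*, *Hoxc13*, *Hoxd8*, *Hoxd9* and *Hoxd11* were called under each alternative that tested them. Among single Hox genes 215 of 225 alternative values kept their direction and side of the threshold, 4 no longer passed, 4 newly passed and 2 changed sign, neither of them called: *Hoxa10* (-0.01 without WT replicate 2, and up to 0.57 with another replicate left out) and *Hoxb9* (-0.08 with the hepatocyte covariate).

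With a detection limit of 10 counts instead of 3, 12 Hox genes were detected in WT ASCs and 10 in *Bdh2*-knockout ASCs, and with a limit of 1 count 31 in each. Against a fold change of 1.2, 2457 genes of all passed instead of 6996, with 0 Hox cofactors, 2 posterior axis genes, 3 Polycomb and trithorax genes and 4 flanking or noncoding genes. Hox cofactors called numbered 1 with DESeq2, with library totals alone and with the 50-count minimum, 0 with the hepatocyte covariate, and 1 to 2 with a replicate left out. DESeq2 called 3 posterior axis genes. Scaling by library totals alone moved the share of called genes that were higher from 50.3% to 38.0% and called 9 Hox genes lower. The cause of these shifts was not tested.

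Equal replicate numbers did not pair the samples, with correlations of their deviations from the group means of -0.154, 0.0995 and 0.245. With the replicate number as a block, 6452 genes of all and 8 Hox genes were called, the latter all lower. The low counts of most Hox genes limit what could be detected.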
